A study of Mus musculus with 4 samples.

Results

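The 71 genes described here are the mouse genes of motile cilia and of the ependyma that could be read from hippocampal microarrays after repeated social defeat stress. They were chosen by symbol, by a rule that uses no measured value but was written with earlier results of these data known: every gene of the Dnah, Dnai, Cfap, Rsph and Spag series, together with Foxj1, Rarres2, Ccdc153, Tmem212, Dynlrb2, Ak7, Mia and Hydin, provided that a row of the array carried that symbol alone. This gave 15 Dnah, 31 Cfap, 5 Rsph and 12 Spag genes and the 8 genes given by name, on 121 rows, of 19938 genes on 21789 rows with a single symbol. No single-symbol row carried a Dnai symbol (0 genes). The 12 genes with more than 1 row were each read from the row with the highest mean over the 4 arrays. A further 5 rows name several genes of which at least 1 is on the list (Dnah7a with Dnah7b and Dnah7c, Rsph3a with Rsph3b, Cfap43 with Itprip) and were not used.

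The R-SDS mice (2 arrays) were male C57BL/6JJmsSlc animals, aged 11 to 12 weeks by the labels, that met an ICR male for 10 min a day over 10 days. After each contact they stayed beside the ICR male, behind a divider with holes, until the next day, and the pairs were changed daily. The Control mice (2 arrays) were males of the same strain and age, housed in pairs on both sides of a divider and never defeated. Total RNA of the dissected hippocampus was hybridised to Affymetrix whole-transcript mouse gene arrays. In the study's text the stressed animals on these arrays count as susceptible, which means that they avoided an unfamiliar ICR male, but the labels carry no such class. Each array is named below by its group and by the replicate number in its title, and the labels leave unsaid what the number stands for. The study's text gives 2 analysed mice for R-SDS, and the p-values measure only the spread between these samples. All levels are log2 values made with RMA, a difference is R-SDS minus Control, and a level is not compared between genes because probes differ in brightness. An error marked SE is limma's standard error of a difference between 2 R-SDS and 2 Control arrays.

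Motile cilia are beating hair-like organelles built on an axoneme of outer microtubule doublets around a central pair. Dynein arms on the doublets pull on the neighbouring doublet, radial spokes carry signals between the central pair and the arms, and many Cfap proteins brace the doublets from inside or outside. In the brain such cilia stand in tufts on ependymal cells, the lining of the ventricles, and also on the epithelium of the choroid plexus, which secretes cerebrospinal fluid. Foxj1 and factors of the RFX family switch on the motile programme. The ventricle borders the hippocampus, so a dissected hippocampus can carry ependyma, and in whole-tissue RNA fewer cells of a type cannot be told apart from less RNA per cell.

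RFX factors bind the X-box, an inverted repeat, and the promoters of cilium genes are known for it. Windows of 300 bases, 250 before and 50 after a RefSeq start site (GRCm38.p6), were given for 57 of the 71 genes, in 62 windows. The half-site GTTGCC, searched on both strands, was present in 22 of the 62 windows (35.5%), belonging to 21 genes, and in 12.5% of all 32851 windows of that length. The whole X-box, which contains or overlaps the half-site, was searched only on the strand of the gene. Its pattern reads differently on the other strand, and matches there were not counted. Read this way, it was in 4 windows (6.45%), against 0.953% of all windows. Of these, 2 belong to genes placed below in a ciliary role (2 of 51 windows, 3.92%). The other 2 belong to genes grouped below as broadly expressed or not ciliary (2 of 11 windows, 18.2%), a grouping that does not exclude a ciliary role. The forkhead motif GTAAACA, again on both strands, was in 4 windows (6.45%), against 3.65% of all. A match of letters is a description and does not show that a factor binds there.

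The 4 genes with a whole X-box on the strand searched, their own, are Dynlrb2 (chr8:116504944-116504996, plus strand), Cfap20dc (chr14:8666359-8666412, minus strand), Spag16 (chr1:69826847-69826900, plus strand) and Cfap298 (nearer of its X-boxes at chr16:90934884-90934938, minus strand). They are shown because Dynlrb2 and Cfap20dc were among the few genes that lay lower in both R-SDS arrays than in both Control arrays. Each is read 5′ to 3′ on the strand of its gene, and capitals mark the X-box.
Dynlrb2: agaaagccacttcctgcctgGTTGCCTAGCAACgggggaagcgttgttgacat
Cfap20dc: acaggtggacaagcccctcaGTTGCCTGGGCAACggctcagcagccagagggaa
Spag16: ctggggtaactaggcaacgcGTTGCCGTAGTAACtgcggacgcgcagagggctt
Cfap298: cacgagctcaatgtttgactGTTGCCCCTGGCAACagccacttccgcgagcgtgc

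The near-identical genes Dnah7a, Dnah7b and Dnah7c, for inner arm heavy chains, lie on chromosome 1, and Dnah7b showed the largest lower value of the 71. Their half-sites are set side by side because the array cannot be assumed to separate transcripts of such copies. The stretches are chr1:53706959-53707004 on the minus strand for Dnah7a, chr1:46066670-46066715 on the plus strand for Dnah7b and chr1:46425279-46425324 on the plus strand for Dnah7c, with the half-site in capitals.
Dnah7a: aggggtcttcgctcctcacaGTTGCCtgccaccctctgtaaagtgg
Dnah7b: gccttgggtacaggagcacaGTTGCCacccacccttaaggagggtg
Dnah7c: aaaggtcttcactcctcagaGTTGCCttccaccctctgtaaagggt

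Whole upstream windows are given for 2 genes that behaved differently on the arrays: Spag6, whose R-SDS values lay above both Control values, and the ependymal marker Ccdc153, whose group means were almost equal. Spag6 is at chr2:18698772-18699021 and Ccdc153 at chr9:44240427-44240676, both on the plus strand and ending at the base before the start site, with the half-site in capitals. The half-site starts 37 bases before the start site of Spag6 and 152 bases before that of Ccdc153.
Spag6: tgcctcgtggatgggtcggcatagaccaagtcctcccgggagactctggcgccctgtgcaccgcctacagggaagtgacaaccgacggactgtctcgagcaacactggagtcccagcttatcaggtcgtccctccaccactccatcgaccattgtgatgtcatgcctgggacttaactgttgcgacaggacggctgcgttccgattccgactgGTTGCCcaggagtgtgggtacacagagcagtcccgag
Ccdc153: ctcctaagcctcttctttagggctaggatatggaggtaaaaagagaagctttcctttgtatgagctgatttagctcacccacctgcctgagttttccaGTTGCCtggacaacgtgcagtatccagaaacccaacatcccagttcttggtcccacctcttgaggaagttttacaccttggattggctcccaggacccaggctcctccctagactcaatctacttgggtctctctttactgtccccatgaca

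The comparison asked whether the genes of motile cilia differ in the hippocampus of R-SDS mice from that of Control mice. As a set they differed little: the median difference was 0.04 over the 71 genes and 0.01 over all 21789 transcripts tested, and 43 of the 71 (60.6%) were above 0, against 52.8% of all transcripts. The size of the differences, without sign, had a median of 0.097 over the 71 genes and 0.0744 over all. None of the 71 passed an adjusted p of 0.05 (limma, Benjamini-Hochberg), where the smallest adjusted p was 1.0, and over all transcripts 0% were called higher and 0% lower. At an unadjusted p under 0.05 limma counted 3 of the 71 (Cfap126, Rsph4a and Dnah7b), the methods' t-test 2 and, over all transcripts, the counts were 221 and 440. By the study's own cut-offs (a log2 difference past 0.5 in size and an unadjusted p under 0.05), 1 gene was higher (Cfap126) and 1 lower (Dnah7b), where 0.147% of all transcripts passed as higher and 0.193% as lower. Cfap126 no longer passed without Control 1 or without R-SDS 1, and Dnah7b no longer passed without Control 2 or without R-SDS 2.

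Both R-SDS arrays lay above both Control arrays for 13 of the 71 genes (18.3%), against 9.41% of all transcripts, and below both for 4 (5.63%), against 9.06%. After centring each array on its median the counts were 13 and 7, and the shares of all transcripts were not counted on that scale. The 13 were Cfap126, Rsph4a, Mia, Cfap47, Ak7, Cfap70, Spag6, Rsph9, Cfap157, Rarres2, Rsph6a, Cfap300 and Spag8. The 4 were Dnah7b, Dnah14, Cfap20dc and Dynlrb2.

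**Figure D1:**
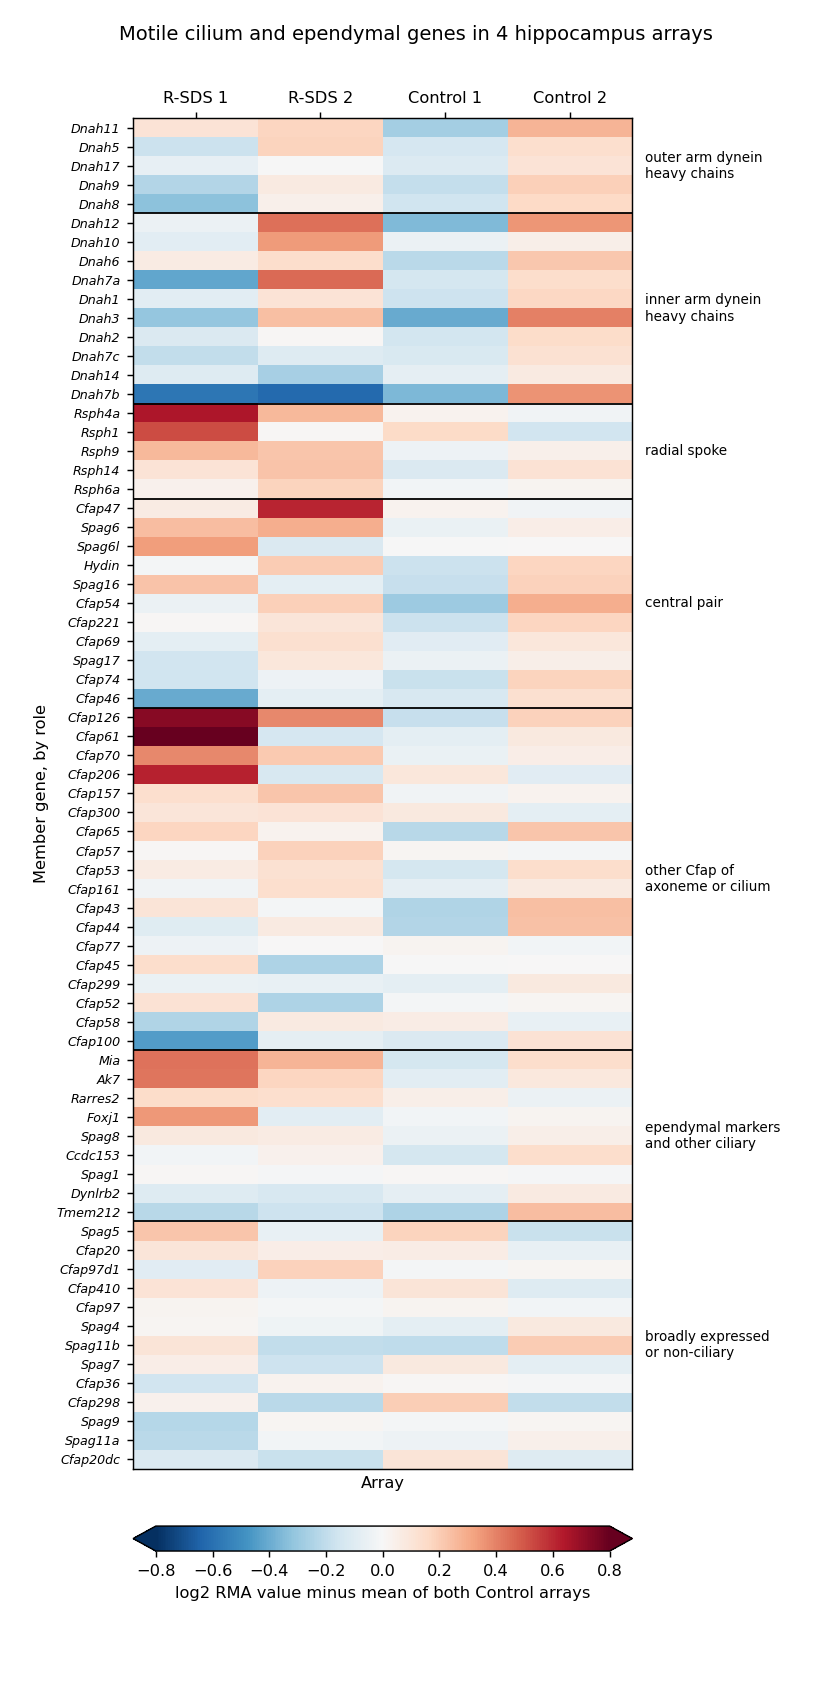
Log2 value relative to the Control mean for each of the 71 genes (rows, ordered by role and then by difference) in R-SDS 1, R-SDS 2, Control 1 and Control 2 (columns). Red is above and blue below the Control mean, and the colour scale ends at 0.8 in either direction. The 5 radial spoke genes are above the Control mean in both R-SDS arrays, and the dynein heavy chains are mostly blue in both number 1 arrays.

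The heavy chains are the motors of the dynein arms. The 5 of the outer arm (Dnah5, Dnah8, Dnah9, Dnah11 and Dnah17) had a median difference of -0.03, with 2 above 0, and for none of them were the groups apart. Dnah11, an outer arm motor, read 5.39 in R-SDS 1 and 5.45 in R-SDS 2, against 5.01 in Control 1 and 5.56 in Control 2. Its R-SDS values thus lay between the Control values, and the difference of 0.14 ± 0.20 (SE) became -0.13 without Control 1. Dnah8, known best from sperm flagella, read 4.07 and 4.43 in R-SDS 1 and 2, against 4.23 and 4.55 in Control 1 and 2. The groups overlapped, with a difference of -0.14 ± 0.19 (SE) that turned to 0.04 without R-SDS 1 and to 0.02 without Control 2. Dnah5, a motor whose loss immobilises cilia, had equal group means of 6.09 and 6.09 in R-SDS and Control.

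The 10 heavy chains of the inner arm had a median difference of -0.01, with 5 above 0. Dnah7b read 4.93 and 4.88 in R-SDS 1 and 2, against 5.14 and 5.86 in Control 1 and 2. Both R-SDS arrays lay below both Control arrays, but most of the difference of -0.60 ± 0.24 (SE, limma adjusted p = 1.0) came from Control 2, and without that array it was -0.24. A second, dimmer row of Dnah7b read 3.30 and 3.90 in R-SDS 1 and 2, against 3.32 and 3.74 in Control 1 and 2, a difference of 0.07, and the mean of both rows gave -0.27. The copies did not move alike: Dnah7a read 3.80 and 4.67 in R-SDS 1 and 2, against 4.07 and 4.35 in Control 1 and 2, and Dnah7c 5.06 and 5.15, against 5.13 and 5.38. With copies this similar, the share of each gene in these values is uncertain.

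Dnah14, a heavy chain classed with the inner arm by its sequence, read 3.75 and 3.59 in R-SDS 1 and 2, against 3.78 and 3.92 in Control 1 and 2. The groups did not overlap, and the difference was -0.18 ± 0.14 (SE). Its mean lay below 5.16, the 95th percentile of the means of 1210 olfactory and vomeronasal receptor rows, which served as a guide to dim values because a hippocampus is not known for these receptors. Dnah12 read 5.54 and 6.03 in R-SDS 1 and 2, against 5.23 and 5.94 in Control 1 and 2, which overlap. Its difference of 0.20 became -0.16 without Control 1 and -0.05 without R-SDS 2. A second, dimmer row of Dnah12 read 4.34 and 4.76 in R-SDS 1 and 2, against 4.06 and 5.19 in Control 1 and 2. The difference of that row was -0.08, and the mean of both rows gave 0.06. The 33 rows that carry the symbol Dnah3, another inner arm motor, gave differences from -0.38 to 0.29, of which 13 were above 0.

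The radial spoke genes were the role with the highest median difference, 0.24, and all 5 (Rsph1, Rsph4a, Rsph6a, Rsph9 and Rsph14) were above 0 within number 1 and within number 2. They also stayed above 0, 5 of 5, after quantile normalisation, after median centring and without any 1 of the 4 arrays, with medians between 0.20 and 0.28. These settings were chosen after the values were seen. For Rsph4a, Rsph6a and Rsph9, whose groups did not overlap, leaving out 1 array could not change the sign. Rsph4a, a protein of the spoke head needed for a normal stroke, read 7.63 and 7.24 in R-SDS 1 and 2, against 7.01 and 6.96 in Control 1 and 2. Both R-SDS arrays lay above both Control arrays, with a difference of 0.45 ± 0.17 (SE, limma adjusted p = 1.0). Rsph9, its partner in the spoke head, read 7.30 and 7.26 in R-SDS 1 and 2, against at most 7.08 in the Control arrays, with a difference of 0.24 ± 0.13 (SE).

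Rsph1, also of the spoke head, read 6.41 and 5.90 in R-SDS 1 and 2, against 6.04 and 5.73 in Control 1 and 2. R-SDS 2 lay below Control 1, so the groups overlapped, and the difference of 0.27 ± 0.21 (SE) was 0.01 without R-SDS 1. Rsph6a, the form found in sperm, read 5.37 and 5.51 in R-SDS 1 and 2, against 5.31 and 5.36 in Control 1 and 2, and Rsph14 5.17 and 5.28, against 4.94 and 5.17. The differences of these genes, 0.11 and 0.17, were of the size of their SE (0.13 and 0.15). Rsph14 is dim by the receptor guide. None of the 5 passed the adjusted p.

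The 11 genes of the central pair had a median difference of 0.07, with 8 above 0. Spag6, a protein of the central apparatus, read 5.68 and 5.72 in R-SDS 1 and 2, against 5.38 and 5.48 in Control 1 and 2. Both R-SDS arrays lay above both Control arrays, with a difference of 0.27 ± 0.13 (SE). Its close relative Spag6l, from which its signal may not be separable, read 7.44 and 6.99 in R-SDS 1 and 2, against 7.10 and 7.11 in Control 1 and 2. Only R-SDS 1 was high there. Hydin, a large central pair protein whose loss gives hydrocephalus in mice, read 5.59 and 5.81 in R-SDS 1 and 2, against 5.43 and 5.78 in Control 1 and 2. Both groups were higher in number 2, they overlapped, and the difference of 0.09 became -0.08 without Control 1 and -0.02 without R-SDS 2.

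Cfap47, a central pair protein, was high in R-SDS 2 alone. It read 4.43 and 4.97 in R-SDS 1 and 2, against 4.40 and 4.34 in Control 1 and 2, with a difference of 0.34 ± 0.20 (SE) that was 0.07 without R-SDS 2. It is dim by the receptor guide. Cfap46, of the same apparatus, read 5.76 and 6.08 in R-SDS 1 and 2, against 6.03 and 6.29 in Control 1 and 2, lower within number 1 (-0.27) and within number 2 (-0.21) although the groups overlapped. A second, dimmer row of Cfap46 read 5.22 and 5.64 in R-SDS 1 and 2, against 5.41 and 5.47 in Control 1 and 2. Its difference was -0.005, lower within number 1 (-0.19) but higher within number 2 (0.18).

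The other 18 Cfap genes of the axoneme or the cilium had a median difference of 0.07, with 11 above 0. Cfap126, a protein at the base of the cilium and inside its doublets, read 5.60 and 5.26 in R-SDS 1 and 2, against 4.69 and 5.05 in Control 1 and 2. Both R-SDS arrays were above both Control arrays, and its difference of 0.56 ± 0.19 (SE, limma adjusted p = 1.0), or 1.47-fold, was the largest higher value of the 71. Leaving out Control 1 gave 0.38, and leaving out R-SDS 1 gave 0.39. The means of Cfap126 were 5.43 in R-SDS and 4.87 in Control, and their average lay just below the receptor guide of 5.16.

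Cfap61, which helps to build radial spokes, read 6.26 and 5.24 in R-SDS 1 and 2, against 5.29 and 5.45 in Control 1 and 2. Only R-SDS 1 was high, and without it the difference of 0.38 became -0.14. Cfap206, a docking factor for radial spokes, showed the same shape, with 6.27 and 5.53 in R-SDS 1 and 2, against 5.74 and 5.57 in Control 1 and 2. Cfap70, a protein of the outer arm, read 5.73 and 5.55 in R-SDS 1 and 2, against 5.29 and 5.40 in Control 1 and 2, with groups apart and a difference of 0.29 ± 0.14 (SE). Cfap100, which anchors an inner arm, read 4.85 and 5.23 in R-SDS 1 and 2, against 5.19 and 5.41 in Control 1 and 2. It had the lowest difference of this role, -0.26 ± 0.18 (SE), with overlapping groups.

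Another 9 genes were grouped as ependymal markers, regulators or other ciliary genes, with a median difference of 0.07 and 7 above 0. Foxj1, the forkhead factor that drives the motile programme, read 6.98 and 6.55 in R-SDS 1 and 2, against 6.62 and 6.66 in Control 1 and 2. R-SDS 1 was above and R-SDS 2 below both Control arrays, and the difference of 0.13 ± 0.18 (SE) became -0.09 without R-SDS 1. Mia, a small secreted protein found in ependymal cells, read 5.50 and 5.34 in R-SDS 1 and 2, against 4.93 and 5.21 in Control 1 and 2. Its groups did not overlap, with a difference of 0.35 ± 0.16 (SE).

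Ak7, an adenylate kinase of the axoneme, read 6.95 and 6.69 in R-SDS 1 and 2, against 6.44 and 6.60 in Control 1 and 2, and its difference was 0.30 ± 0.15 (SE). Rarres2, which encodes the secreted chemerin, read 5.89 and 5.88 in R-SDS 1 and 2, against 5.79 and 5.70 in Control 1 and 2. The groups of Ak7 and of Rarres2 were apart, but the difference of Rarres2, 0.14, was close to its SE of 0.13. The forkhead motif lay 131 bases before the start site of Ak7 (chr12:105705831-105705877, plus strand), the only gene of the 8 given by name with this match, and it is shown for that reason with the motif, read on the opposite strand, in capitals.
Ak7: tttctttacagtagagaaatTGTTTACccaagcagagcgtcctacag

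The remaining genes given by name had overlapping groups or lay lower in R-SDS. Ccdc153, a protein of the dynein regulatory complex and a marker of ependymal cells, read 6.55 and 6.60 in R-SDS 1 and 2, against 6.42 and 6.71 in Control 1 and 2. The R-SDS values lay between the Control values, and the difference was 0.01 ± 0.15 (SE), with either sign in the other fits. Tmem212, a membrane protein of ependymal cells, read 6.24 and 6.30 in R-SDS 1 and 2, against 6.22 and 6.71 in Control 1 and 2. Only Control 2 stood apart, and without it the difference of -0.19 ± 0.19 (SE) became 0.05. Dynlrb2, a light chain of dynein, read 5.09 and 5.07 in R-SDS 1 and 2, against 5.12 and 5.27 in Control 1 and 2, below in both R-SDS arrays with a difference of -0.11 ± 0.13 (SE). Its mean lay just below the receptor guide.

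**Figure D2:**
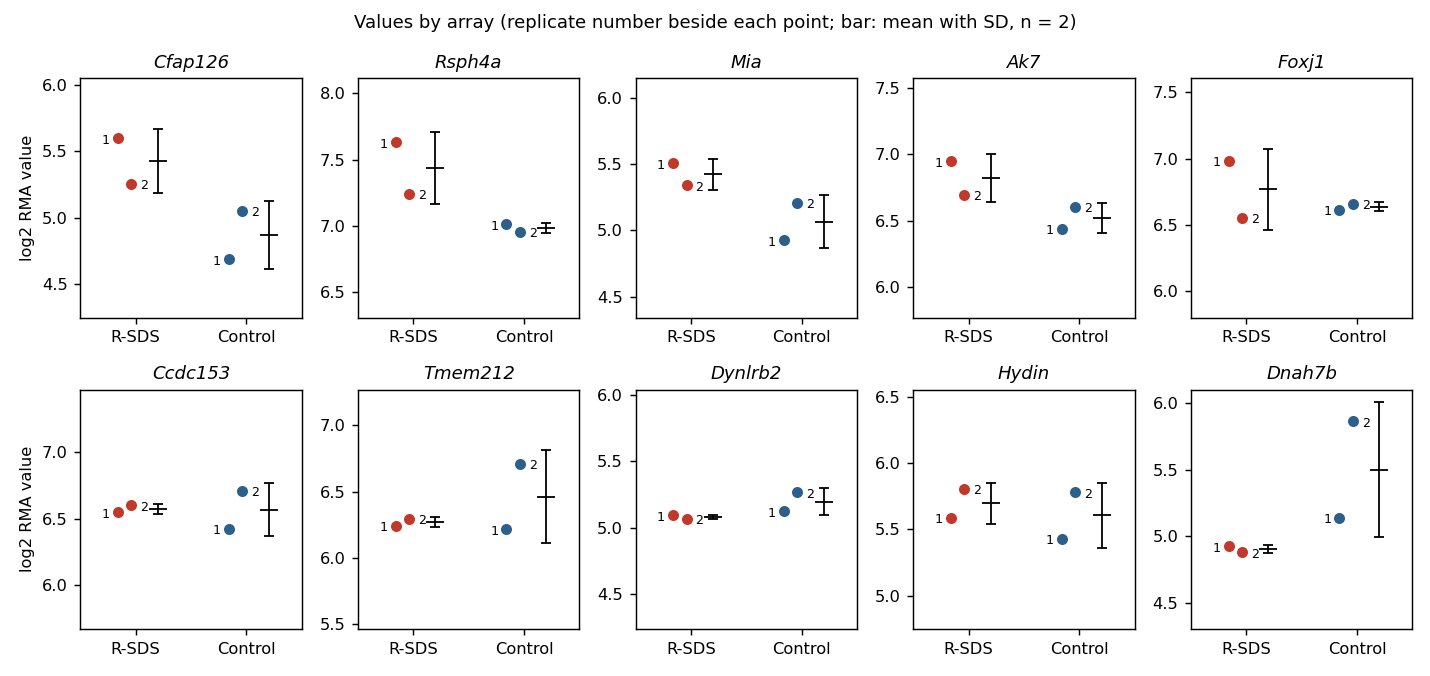
Log2 RMA value of 10 genes in each array (points, replicate number beside each), with R-SDS left and Control right. Bars give the mean with the SD of 2 arrays, and each panel spans the same height of the log2 scale. Cfap126, Rsph4a, Mia and Ak7 have both R-SDS points above both Control points, Dynlrb2 and Dnah7b have both below, and Foxj1, Ccdc153, Tmem212 and Hydin overlap.

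A group of 13 genes reached the list through their symbol and was set apart as expressed broadly or not of cilia. Broad expression does not exclude a ciliary role, and the doublet protein Cfap20 is in this group. The median difference of the 13 genes was -0.05, with 5 above 0 and 1 of 13 (Cfap20dc, lower) with separated groups. Cfap20dc, which shares a domain with the doublet protein Cfap20, read 5.90 and 5.84 in R-SDS 1 and 2, against 6.12 and 5.92 in Control 1 and 2, a difference of -0.15 ± 0.14 (SE). Spag11a, an epididymal antimicrobial peptide gene with no known role in cilia, read 5.21 and 5.41 in R-SDS 1 and 2, against 5.39 and 5.47 in Control 1 and 2. Spag9, a scaffold for kinases and motor transport with the brightest row of the 71, read 9.77 and 10.01 in R-SDS 1 and 2, against 9.98 and 10.01 in Control 1 and 2. The differences of these genes stayed within 0.15 of 0.

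Within number 1 the median difference of the 71 genes was 0.04, with 49 above 0 (69%, against 51.7% of all transcripts), and within number 2 it was -0.02, with 34 above 0 (47.9%, against 52.6%). A comparison chosen with the values in view took the 4898 other rows with means from 5.19 to 6.62, the quartiles of the 71 genes. Of these rows, 56.9% were above 0 within number 1 and 47.7% within number 2. Of the 71, 24 were above 0 in both numbers (33.8%, against 27.3% of all transcripts), 12 below 0 in both (16.9%, against 22.7%), 25 above only in number 1 and 10 above only in number 2. The differences within number 1 and within number 2 correlated at r = 0.10 (Spearman's rho = 0.05) across the 71 genes, which share the arrays and are not independent replicates. The radial spokes had a median of 0.30 within number 1 and 0.17 within number 2, the central pair 0.16 and -0.08, the other Cfap genes 0.14 and -0.03, and the ependymal group 0.12 and 0.01. The radial spokes were the single role of the 7 in which every gene had the same sign in both numbers. The plot of the differences within each number shows this, with Cfap61 and Cfap206 far to the right and at or below the middle line.

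**Figure D3:**
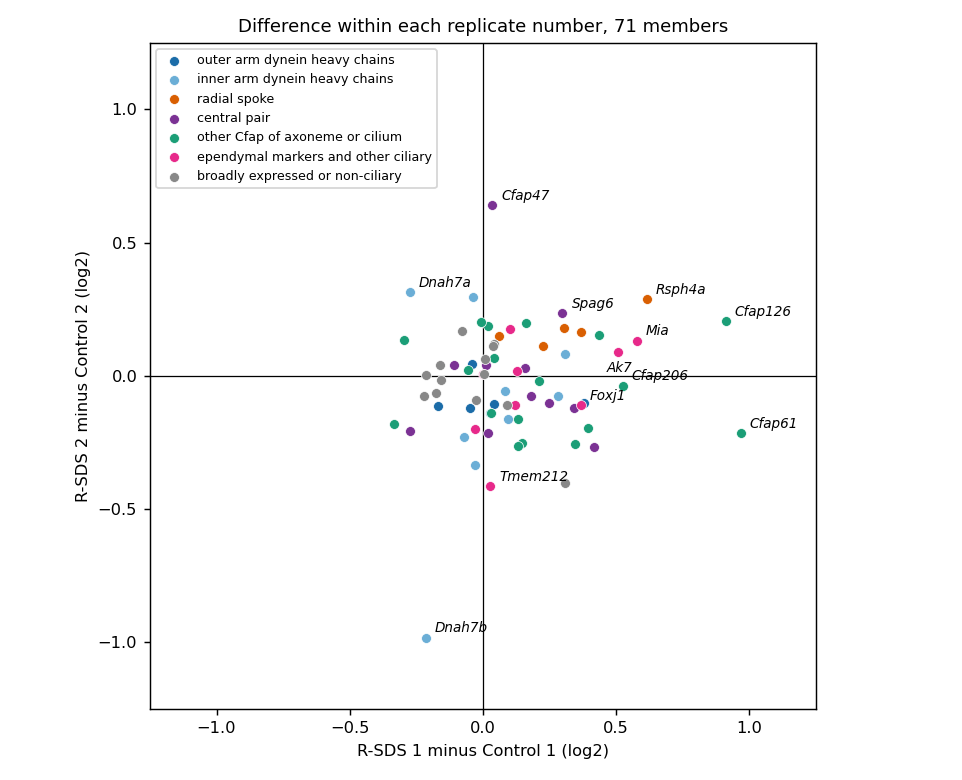
Difference R-SDS 1 minus Control 1 (horizontal, log2) against R-SDS 2 minus Control 2 (vertical, log2) for the 71 genes, coloured by role. Points in the upper right quadrant were higher in R-SDS in both numbers (24 genes) and those in the lower left lower in both (12 genes). The 5 radial spoke genes lie in the upper right, Cfap61 lies at 0.97 and -0.21, and Dnah7b at -0.22 and -0.98.

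The 15 heavy chains had a median difference between the groups of -0.03, and a median size without sign of 0.10. The differences between single arrays that follow are not set against these, since a mean of 2 arrays varies less. All 15 were higher in Control 2 than in Control 1, by a median of 0.32, and 13 of 15 were higher in R-SDS 2 than in R-SDS 1, by a median of 0.19. Over all rows of Dnah3, 29 of 33 were higher in R-SDS 2 than in R-SDS 1 and 32 of 33 were higher in Control 2 than in Control 1. The width of the value distribution went with the number too, with an interquartile range of 3.37 in R-SDS 1, 3.11 in R-SDS 2, 3.34 in Control 1 and 3.06 in Control 2. The receptor rows, which are dim, were higher in number 2 by a median of 0.15 in R-SDS and 0.19 in Control. After quantile normalisation, the heavy chains were higher in number 2 for 8 of 15 in R-SDS (median 0.02) and 13 of 15 in Control (median 0.15). With all arrays, 7 of 15 heavy chains were above 0 in R-SDS against Control, and the count was 11 without R-SDS 1, 2 without R-SDS 2, 1 without Control 1 and 12 without Control 2. Over all 71 genes, 33 were above in number 2 in both groups (46.5%, against 34.8% of all transcripts). In R-SDS alone 39 of the 71 (54.9%) were above in number 2, and in Control alone 53 (74.6%). The shares were 57% and 61.3% for the 4898 other rows of similar mean value. After quantile normalisation the counts in R-SDS and Control were 26 and 39 of the 71, and 1700 and 2055 of the 4898.

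**Figure D4:**
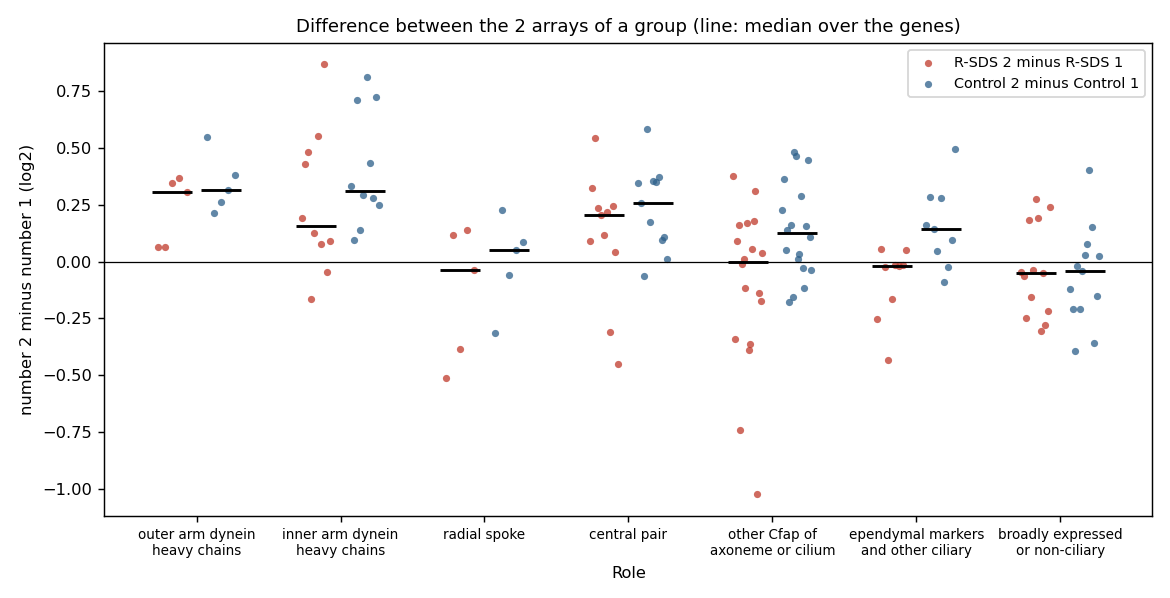
Difference between the arrays of a group, number 2 minus number 1 on the log2 scale, for each gene by role, with R-SDS left and Control right in each role. The line is the median over the genes of the role. The heavy chains and the central pair lie mostly above 0 in both groups, with 13 of 15 and 15 of 15 heavy chains above 0 in R-SDS and Control.

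Genes that work with the 71 were read from lists of their own, which hold none of the 71. Of 44 measured genes of the axoneme and of dynein assembly (53 on the list), 0 passed the adjusted p, the median difference was 0.08 and 30 were above 0. The groups were apart upwards for 10 of the 44 (9.41% of all transcripts) and downwards for 2 of the 44 (9.06% of all transcripts). Drc7, of the dynein regulatory complex, had the largest difference, 0.90, and read 7.25 and 5.49 in R-SDS 1 and 2, against 5.56 and 5.37 in Control 1 and 2, so that only R-SDS 1 was high. Kif9, a kinesin of the central pair, read 6.47 and 6.25 in R-SDS 1 and 2, against 5.87 and 5.94 in Control 1 and 2, with groups apart and a difference of 0.45 ± 0.14 (SE, limma adjusted p = 1.0).

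Of 18 measured regulators of multiciliation, 11 were above 0, with a median of 0.04, and 0 passed the adjusted p. Gmnc, which starts the multiciliate programme, read 5.57 and 5.65 in R-SDS 1 and 2, against at most 5.21 in the Control arrays. Its groups were apart and its difference of 0.51 ± 0.14 (SE, limma adjusted p = 1.0) was the single one on this list past the thresholds of the study. E2f5, a cofactor of the same programme, lay lower in both R-SDS arrays, at 6.59 and 6.37, against 6.88 and 6.67 in Control 1 and 2, a difference of -0.29. The RFX factors Rfx1, Rfx2, Rfx3 and Rfx4 stayed between 0.01 and 0.10.

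Of 24 other measured markers of ependymal cells (25 on the list), 20 were above 0, with a median of 0.08, and 0 passed the adjusted p. These counts are not separate from those of the axoneme list, since 7 of the 24 (Enkur, Fam183b, Odf3b, Pifo, Sntn, Tekt4 and Zmynd10) are on both. The largest difference, 0.94, was that of Calml4, which is also on the choroid plexus list and read 6.14 and 4.29 in R-SDS 1 and 2, against 4.29 and 4.26 in Control 1 and 2. Nek5, a kinase, read 5.52 and 5.17 in R-SDS 1 and 2, against 4.85 and 5.05 in Control 1 and 2. Of 37 genes of intraflagellar transport and the primary cilium (38 on the list), 19 were above 0 with a median of 0.01, and 0 passed the adjusted p. Their largest values in either direction were 0.21 for Ift122, of the transport complex, and -0.33 for Cep290, of the transition zone.

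Marker genes of cells that border the ependyma were uneven in level between arrays. All 27 measured choroid plexus genes (30 on the list) were above the Control mean in R-SDS 1, by a median of 2.13, and 9 of 27 in R-SDS 2, with a median of -0.07. The same medians were 0.07 in Control 1 and -0.07 in Control 2. Kcnj13, a potassium channel of that epithelium, read 10.75 and 5.56 in R-SDS 1 and 2, against 7.34 and 5.83 in Control 1 and 2. Ttr, its carrier of thyroid hormone, read 13.21 and 8.79 in R-SDS 1 and 2, against 11.38 and 7.43 in Control 1 and 2, so that both number 1 arrays were high. All 12 meningeal fibroblast genes were above the Control mean in R-SDS 1 (median 0.68) and 2 of 12 in R-SDS 2 (median -0.17), and the medians in the Control arrays were 0.18 and -0.18. Igfbp2, a binding protein for growth factors, had the largest difference on that list, 0.94, and Igf2 the next, 0.68.

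The 58 genes of the 71 outside the broadly expressed or non-ciliary group had a median of 0.01 against the Control mean in R-SDS 1, with 30 above it, and 0.08 in R-SDS 2, with 39 above it. The Control arrays themselves differed for these genes, of which 48 were higher in Control 2 than in Control 1. Within number 1 the median difference was 0.11, with 43 of 58 above 0, and within number 2 it was -0.05, with 27 of 58 above 0. Cfap61, Cfap206, Foxj1, Spag6l, Drc7 and Calml4 were high in R-SDS 1 alone. Without R-SDS 1 the difference was 0.26 for Rsph4a and 0.39 for Cfap126, and the median of the radial spokes was 0.22. The part of choroid plexus or meningeal RNA in these values was not tested. The 11 measured genes of hippocampal neurons (12 on the list) all read above the receptor guide of 5.16 in every array. This does not show that the tissue was hippocampus, since the guide lay below the median of every array (5.91 to 6.06). The median difference of these 11 genes was 0.04, and among them Wfs1, of CA1 cells, read 9.27 and 8.80 in R-SDS 1 and 2, against 8.97 and 8.87 in Control 1 and 2, and Bok, of CA3 cells, 7.78 and 7.45, against 7.72 and 7.33. The 11 astrocyte genes had a median difference of 0.09, with the largest for Aldh1l1 (0.23) and Gfap (0.15), and the 12 genes of regions beside the ventricle (14 on the list) 0.00, with the largest for Ppp1r1b (0.32) and Chrnb4 (0.30). None of these genes passed the adjusted p.

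**Figure D5:**
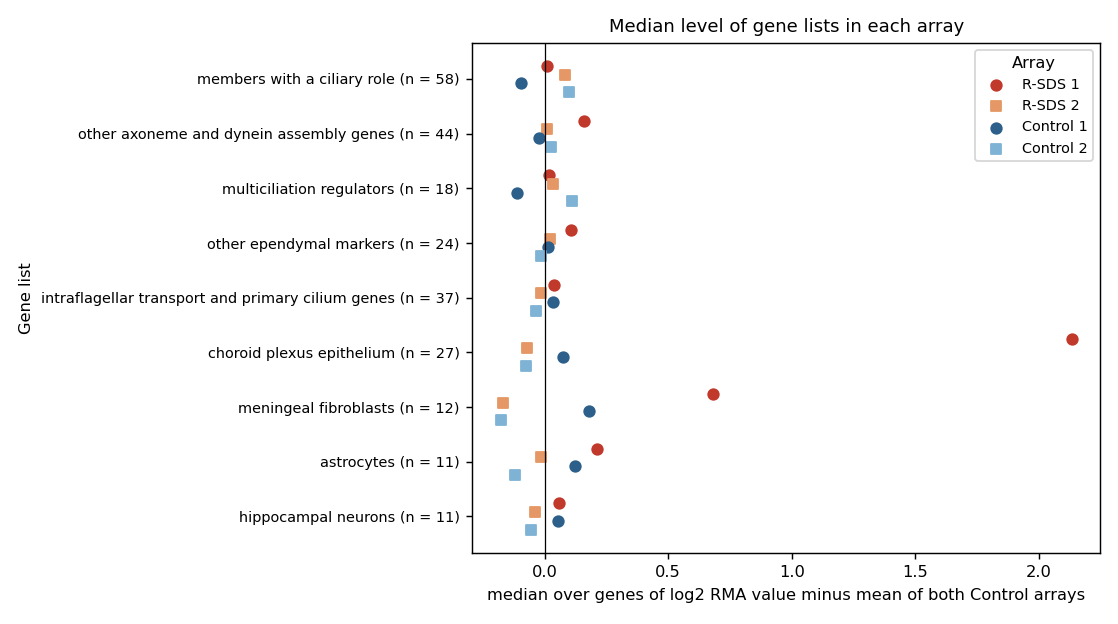
Median over the genes of each list of the log2 value relative to the Control mean, for R-SDS 1 and 2 (red and orange) and Control 1 and 2 (dark and light blue). The choroid plexus list stands at 2.13 and the meningeal list at 0.68 in R-SDS 1, and the 58 ciliary genes lie between -0.10 and 0.10 in all 4 arrays.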

How the data were processed

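The deposited values are log2 intensities, which the labels credit to RMA as run by the authors in Expression Console. RMA corrects background, normalises arrays and summarises the probes of a transcript cluster. No source used here names the genome build of the probes, and labels and methods name different labelling kits. The values carry no detection call, so the number of arrays (4) limits the precision, and the arrays correlated at 0.988 to 0.996 across transcripts. Of 35556 rows, 1621 with several symbols and 12146 with none listed were left out. The test was limma 3.58.1 (R 4.3.3) over 21789 rows of all 4 arrays, two-sided, adjusted by Benjamini-Hochberg, with 2 residual and 4.07 prior degrees of freedom. SE is limma's moderated one. The methods' t-test is the unpaired test named in the study's methods. Symbols were checked by Entrez identifier in RefSeq GRCm38.p6 (71 of 71 found, 0 changed).

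The members, roles and 9 lists were chosen with earlier results of these data known. Genes named are the 8 given by name, up to 6 per direction with the largest difference among separated groups, and the 2 largest of each role and list. Dnah3, Dnah5, Dnah7a, Dnah7c, Cfap46, Cfap100, Cfap206, Cfap298, Spag6l, Spag9, Spag16, Rsph6a, Rsph9, Rsph14 and the RFX genes were added with their values in view. Alternatives were quantile normalisation, median centring, leaving out dim rows, a replicate block, the methods' t-test, the mean of all rows of a gene and leaving out each array. The procedure was tested on simulated data. Plots were drawn with matplotlib 3.10.9.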

Additional observations from a re-analysis of the deposited data

How the results depend on the processing

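No gene of the 71 passed the adjusted p under any alternative that was run. A gene whose groups do not overlap cannot change sign when 1 array is left out. Among the named genes that kept their sign, only Rsph1 and Spag11a had overlapping groups. Of 22 named genes, 14 kept their sign without any single array and 8 did not. The leave-one-out ranges of those 8 were -0.1351 to 0.149 for Ccdc153 (also -0.0005 after quantile normalisation), -0.1355 to 0.8876 for Cfap61, -0.1346 to 0.4118 for Dnah11, -0.1585 to 0.5504 for Dnah12, -0.3258 to 0.0427 for Dnah8, -0.0865 to 0.3449 for Foxj1, -0.0822 to 0.2666 for Hydin and -0.4399 to 0.054 for Tmem212. Without single arrays, 0 to 5 genes passed the thresholds of the study as higher (0.34% to 1.91% of all transcripts) and 0 to 1 as lower (0.307% to 1.48%), 20 to 37 had separated groups upwards (27.3% to 34% of all) and 7 to 28 downwards (25.1% to 30.7%), since with 1 array left in a group separation is easier to reach, and the median difference ranged from -0.0571 (without Control 1) to 0.1144 (without Control 2). In these fits the lone array is assumed to vary like the other group. Without R-SDS 2, 46 of all transcripts were called higher and 3 lower. Leaving out dim rows kept 19 of the 71, with 13 above 0. Of the 19, 4 were separated upwards (7.4% of all transcripts in that fit) and 0 downwards (7.39%). Past the thresholds were 0 higher (0.0459% of all) and 0 lower (0.00918%), since Cfap126 and Dnah7b were not among the 19. The methods' t-test put 0 higher (0.0275% of all transcripts) and 0 lower (0.0597%) past these thresholds. The mean of all rows put 0 lower (0.186%). Median centring gave 7 separated downwards, and the share of all transcripts was not counted on the centred scale. With the replicate block, 0 genes were called, and 1 higher (0.248% of all transcripts) and 1 lower (0.211%) passed the thresholds. The median stayed 0.0354, and the count at an unadjusted p under 0.05 was 8, against 3 without the block (1047 against 221 over all transcripts). The differences between number 2 and number 1 in R-SDS and Control correlated at 0.52 across all transcripts and 0.34 across the 71, but the labels do not say that the numbers pair samples. The cause of these changes was not tested.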
